A study of Mus musculus with 4 samples.

Results

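The insulin-like growth factor (IGF) axis was read in 4 RNA-seq libraries of mouse endometrium through 10 genes, chosen by their symbols: the ligand Igf1, the receptor Igf1r, the binding proteins Igfbp2, Igfbp3, Igfbp4, Igfbp5, Igfbp6 and Igfbp7, and the adaptors Irs1 and Irs2. All 10 were found among the 28545 genes of the deposited tables, and all 10 passed the filter on low values (a mean FPKM of at least 1), as did 13513 genes in all. Each label has 2 libraries. The first pair is labelled SMAD7fl/fl, meaning that loxP sites flank part of Smad7, and is called floxed here. The second pair is labelled SMAD7 Cre+/- and CKO, and is called Cre; whether those mice carry the floxed allele on both chromosomes is not stated in the labels. For all 4 libraries the labels describe an allele made by injecting fertilised eggs with a guide RNA, Cas9 mRNA and a donor with loxP sites. All mice were in proestrus, the estrogen-dominated phase before ovulation. The series' design text calls the controls WT. The sources used here do not give the driver of Cre, the age of the mice or the number of animals behind each library, so the p-values rest on library-to-library spread alone, which could be technical.

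IGF1 is a secreted hormone that binds the receptor tyrosine kinase IGF1R, which signals through the docking proteins IRS1 and IRS2 to PI3 kinase, AKT and the FOXO transcription factors. In body fluids most IGF is held by binding proteins, which carry it, keep it from the receptor and release it when proteases cut them. In the rodent uterus, estrogen induces stromal Igf1, and IGF1 then drives growth of the epithelium.

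Total counts per library ran from 17444368 to 22950532. Smad7 itself, the gene the labels say was targeted, was higher under the Cre label. It stood at 34.3 and 36.8 CPM in the floxed pair and at 228 and 154 CPM in the Cre pair. CPM are counts relative to each library's scaled total. The log2 fold change was 2.42 ± 0.28 (SE, edgeR adjusted p 0.0982). Counts are per gene, so they do not show whether the part between the loxP sites was read. Every direction below is therefore that of Cre-labelled against floxed-labelled libraries, written as under the Cre label and under the floxed label, and not that of a verified loss of Smad7. Markers of endometrial stroma, epithelium, smooth muscle and endothelium were all detected in every library, so the tissue was mixed. In bulk tissue, fewer cells of a type and less RNA per cell cannot be told apart. The floxed pair was uneven: the median gene differed 1.34-fold between its libraries, against 1.14-fold in the Cre pair. Over all tested genes the 2 floxed libraries had a rank correlation of 0.908, below that of every other pair of libraries (0.912 to 0.985).

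No member passed the test, which was edgeR's quasi-likelihood test with an adjusted p under 0.05, and neither did any other gene (background 0%). Igfbp3 was the member with the smallest p, 2.99-fold lower under the Cre label, and Igf1 had the largest positive value, 2.14-fold higher. At an unadjusted p under 0.05 the test held 0 members on the higher side, where 7.3% of all tested genes lay, and 1 on the lower side, where 6.58% lay. At the looser limit of an adjusted p under 0.1 there were 0 members and 0.577% of all genes. DESeq2 on the same counts called 0 members higher (3.24% of all genes) and 1 lower, Igfbp3 (3% of all genes), and limma on log2(FPKM + 1) called 0 (0% of all genes). With no filter on low genes edgeR called 1 member higher, Igf1 (3.63%), and 1 lower, Igfbp3 (3.41%). Against floxed 2 alone there were 4 members higher (17.5% of all genes) and 2 lower (13.9%), and against floxed 1 alone 0 higher (10.4%) and 3 lower (11.4%). The members' median log2 fold change was 0.013, with 5 above and 5 below zero, and that of all tested genes was -0.033. In 1 member, Igf1, the libraries labelled Cre both lay above those labelled floxed (24.7% of all genes did so), and in 3 members, Igfbp3, Igfbp7 and Irs2, both lay below (23.6% of all genes). Of 10 members, these shares are near the background on the lower side and below it on the higher side. Smooth muscle markers, summed, went from 3256 and 2453 CPM under the floxed label to 6275 and 5095 CPM under the Cre label, and their part in the members' values was not tested.

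**Figure D1:**
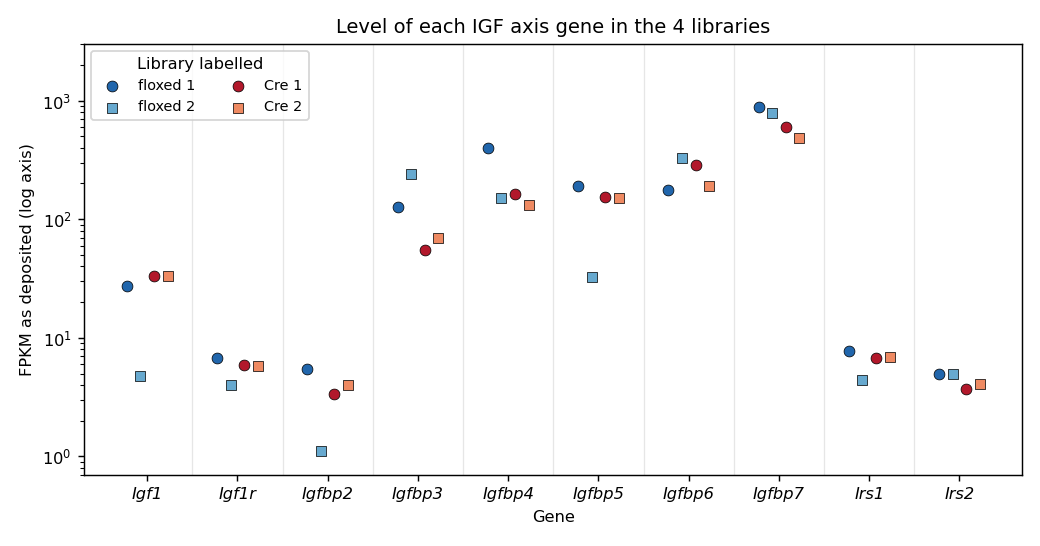
Deposited FPKM (log axis) of the 10 genes in the 4 libraries, 1 point per library, blue for those labelled floxed and red for those labelled Cre. Igfbp7 was the highest in every library, from 486 to 888 FPKM, and floxed 2 stood apart with low values of Igf1, Igfbp2 and Igfbp5.

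FPKM, which is per length of the gene, allows the genes to be ranked against each other. Igfbp7 led in every library, and Igfbp6, Igfbp4, Igfbp5 and Igfbp3 followed in an order that changed between libraries. Igfbp3 had rank 5 in 3 libraries and rank 3 in floxed 2, where Igfbp5 had rank 5. Igf1 came next, at 27.2, 4.74, 33.5 and 33.3 FPKM in floxed 1, floxed 2, Cre 1 and Cre 2, and was rank 6 in all but floxed 2, where Irs2 stood just above it at 4.91 FPKM. Igf1r, Irs1, Irs2 and Igfbp2 were the lowest, all between 1.10 and 7.79 FPKM. In each of the 4 libraries Irs1 stood above Igf1r and Igf1r above Igfbp2, although their ranges over the libraries overlapped, while Irs2 changed place.

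Igf1, the ligand (ENSMUSG00000020053, chromosome 10, 87858265 to 87937042, plus strand of GRCm38), held 6186 and 854 counts under the floxed label and 6577 and 5758 under the Cre label. Scaled to library size these were 263 and 49.0 CPM against 335 and 332 CPM. Floxed 2 lay far below the other 3 libraries, and the groups did not overlap. A log2 fold change of 1.10 ± 0.75 resulted (edgeR adjusted p 0.556). Compared with floxed 1 alone it was 0.33 (edgeR adjusted p 0.298), and compared with floxed 2 alone 2.77 (2.3e-08), the lone library being assumed to vary like the Cre pair. An exact two-sided permutation test of Igf1 had p = 0.333, below which 2 libraries against 2 cannot go.

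Igf1r, the receptor (ENSMUSG00000005533, chromosome 7, 67952827 to 68233668, plus strand), varied little by comparison. It stood at 111 and 70.5 CPM under the floxed label and at 100.3 and 98.3 CPM under the Cre label, so the Cre values lay between the floxed ones. Its log2 fold change was 0.13 ± 0.28 (edgeR adjusted p 0.853), and its sign depended on the floxed library, at -0.17 against floxed 1 and 0.50 against floxed 2.

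Among the binding proteins, Igfbp3, the main carrier of IGF in blood (ENSMUSG00000020427, chromosome 11, 7206086 to 7213923, minus strand), stood at 389.9 and 783 CPM under the floxed label and at 172 and 219 CPM under the Cre label. The groups did not overlap, although the floxed libraries differed 2.01-fold from each other. The log2 fold change was -1.58 ± 0.42, and edgeR put its p at 0.0119 before and 0.227 after adjustment. DESeq2 gave an adjusted p of 0.00541 for the same counts. Against floxed 1 alone the value was -1.00 and against floxed 2 alone -2.00. That both are negative follows from the groups not overlapping. Without Cre 1 it was -1.42 and without Cre 2 it was -1.77, with edgeR adjusted p-values of 0.998 and 1.00, the lone library then being assumed to vary like the floxed pair.

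Igfbp7, a binding protein of low affinity for IGF that is found in vessel walls and stroma (ENSMUSG00000036256, chromosome 5, 77349240 to 77408041, minus strand), had floxed values close to each other. They were 1047 and 1000.1 CPM, against 728 and 589.9 CPM under the Cre label. This 1.55-fold difference, or -0.64 ± 0.30 in log2, came with an adjusted p of 0.423 in edgeR and no overlap between the groups. It was -0.67 against floxed 1 (edgeR adjusted p 0.0176) and -0.60 against floxed 2 (0.0285). Exons of Polr2b on the other strand cover 7.03% of its exon bases, and no label tells if reads were counted by strand, so a part of its reads is uncertain.

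Igfbp4, whose protein blocks IGF until the protease PAPP-A cuts it (ENSMUSG00000017493, chromosome 11, 99041244 to 99054392, plus strand), was high in floxed 1 alone. It stood at 1700.45 CPM there, at 697 CPM in floxed 2, and at 727 and 585 CPM under the Cre label. The log2 fold change of -0.87 ± 0.50 (edgeR adjusted p 0.493) was -1.38 against floxed 1 (1.3e-05) and -0.086 against floxed 2 (0.787). The difference thus rested on floxed 1.

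Igfbp5, a binding protein that also attaches to extracellular matrix (ENSMUSG00000026185, chromosome 1, 72857932 to 72874884, minus strand), was low in floxed 2 alone, like Igf1. The values were 1106 and 206 CPM under the floxed label and 935 and 906 CPM under the Cre label. Its log2 fold change was 0.49 ± 0.77 (edgeR adjusted p 0.793), and it changed sign with the floxed library, from -0.27 against floxed 1 to 2.16 against floxed 2. Igfbp2, its neighbour (ENSMUSG00000039323, chromosome 1, 72824503 to 72852474, plus strand), was the scarcest binding protein, with 233 and 37 counts against 124 and 130. It stood at 9.90 and 2.12 CPM under the floxed label and at 6.31 and 7.49 CPM under the Cre label. Its log2 fold change of 0.19 ± 0.74 (edgeR adjusted p 0.926) was -0.53 against floxed 1 and 1.70 against floxed 2. Igfbp6, which prefers IGF2 (ENSMUSG00000023046, chromosome 15, 102144362 to 102149511, plus strand), went the other way within the floxed pair, with 191 and 379 CPM against 318 and 212 CPM, and its groups overlapped (log2 fold change -0.10 ± 0.42, edgeR adjusted p 0.930). Its sign changed with single libraries, to 0.47 against floxed 1 alone and to 0.16 without Cre 2.

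**Figure D2:**
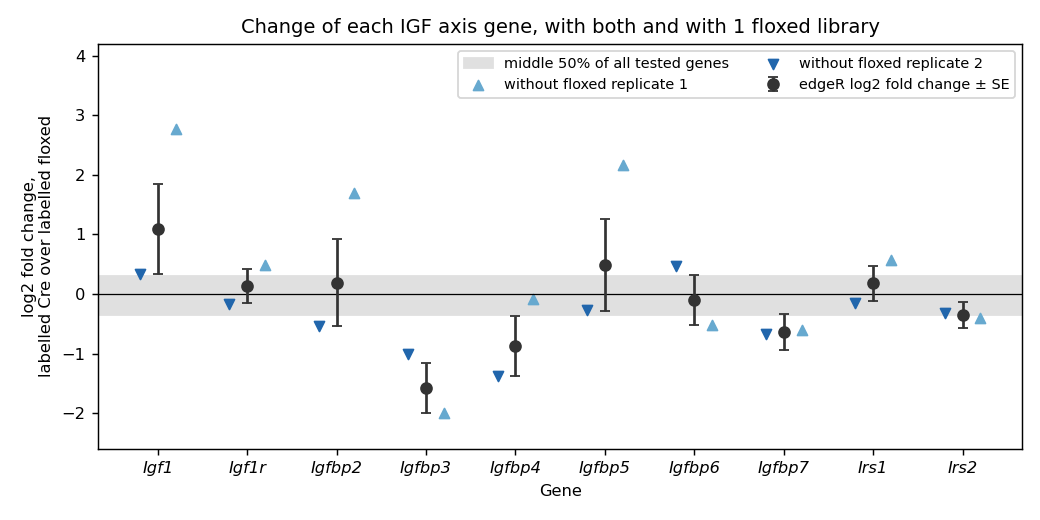
Log2 fold change of each gene between the libraries labelled Cre and floxed, with its SE (black), and the value with only floxed 2 (upward triangles) or only floxed 1 (downward triangles) kept; the grey band is the middle 50% of all tested genes, from -0.36 to 0.31. The band comes from the fit to all 4 libraries, not from the fits that keep a single floxed library. With either floxed library Igf1 lay above zero, and Igfbp3, Igfbp4, Igfbp7 and Irs2 lay below it. Igf1r, Igfbp2, Igfbp5, Igfbp6 and Irs1 lay on opposite sides of zero.

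Of the adaptors, Irs1 had overlapping groups and Irs2 was lower in both Cre libraries. Irs1, which docks PI3 kinase to the receptor (ENSMUSG00000055980, chromosome 1, 82233101 to 82291416, minus strand), stood at 69.4 and 42.3 CPM under the floxed label and at 62.6 and 63.8 CPM under the Cre label (log2 fold change 0.18 ± 0.29, edgeR adjusted p 0.800). The value was -0.14 against floxed 1 and 0.58 against floxed 2. Exons of Gm9747 on the other strand cover 30.9% of its exon bases, so its level is uncertain. Irs2, a docking protein whose gene FOXO factors induce when insulin signalling is low (ENSMUSG00000038894, chromosome 8, 10984681 to 11008458, minus strand), stood at 30.4 and 32.4 CPM against 23.5 and 25.8 CPM. Its groups did not overlap, and the log2 fold change was -0.35 ± 0.21 (edgeR adjusted p 0.516), at -0.31 against floxed 1 and -0.40 against floxed 2. Exons of 9530052E02Rik on the other strand cover 2.56% of its exon bases. The other 7 members share no exon base with another annotated gene.

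The difference between the floxed libraries was larger than the difference between the Cre libraries in 8 of the 10 members, and in 72.2% of all tested genes. Floxed 1 held 5.33 times the Igf1, 5.37 times the Igfbp5 and 3.97 times the Igfbp2 of floxed 2 in CPM. Differences as large as those of Igf1 and Igfbp5 were seen in 1.84% and 1.81% of all tested genes, and as large as that of Igfbp2 in 3.26%. Floxed 2 in turn held 2.01 times the Igfbp3 and 1.99 times the Igfbp6 of floxed 1. In the Cre pair, Igf1, Igf1r and Igfbp5 differed by at most 1.03-fold. Its widest gap among the members was that of Igfbp6, 1.50-fold.

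**Figure D3:**
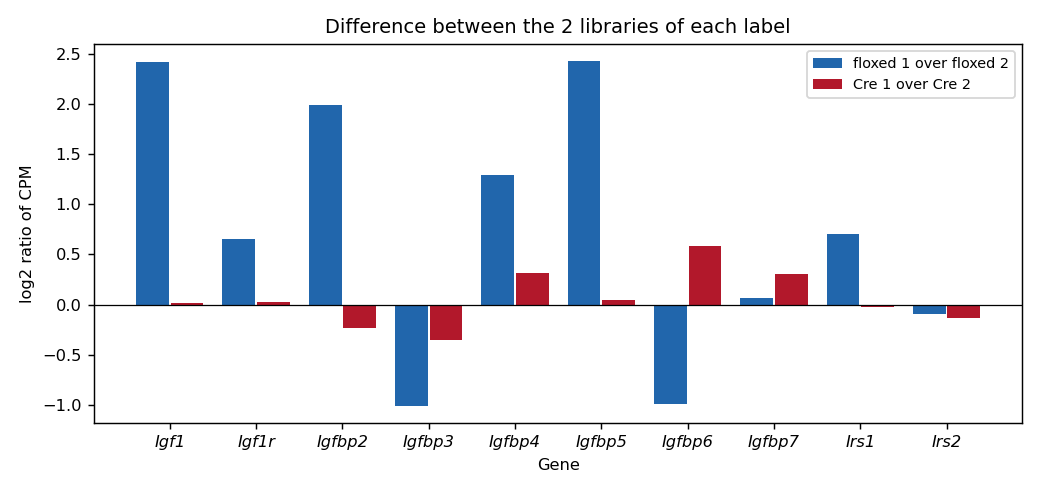
Log2 ratio of CPM between the libraries of each label, floxed 1 over floxed 2 in blue and Cre 1 over Cre 2 in red. The blue bars of Igf1 and Igfbp5 reach 2.41 and 2.42, and the red ones stay at 0.013 and 0.046.

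Some of the binding protein genes are neighbours in the mouse genome. Igfbp2 and Igfbp5 point towards each other on chromosome 1 with 5.46 kb between them and 0 protein-coding genes in the gap; relative to the other libraries, these binding protein genes were the lowest in floxed 2. Igfbp3 is 3.54 kb from Igfbp1, which was not analysed here. The promoters of the neighbours Igfbp2 and Igfbp5 are shown because both genes were low in floxed 2, and that of Igfbp3 because it ran the other way within the floxed pair. Each is the 250 bases before the start site in RefSeq on GRCm38.p6, written 5′ to 3′ on the strand of the gene, with matches to 7 motifs in capitals. They are chr1:72824230-72824479 (plus strand) for Igfbp2, chr1:72874866-72875115 (minus strand) for Igfbp5 and chr11:7213924-7214173 (minus strand) for Igfbp3.
Igfbp2: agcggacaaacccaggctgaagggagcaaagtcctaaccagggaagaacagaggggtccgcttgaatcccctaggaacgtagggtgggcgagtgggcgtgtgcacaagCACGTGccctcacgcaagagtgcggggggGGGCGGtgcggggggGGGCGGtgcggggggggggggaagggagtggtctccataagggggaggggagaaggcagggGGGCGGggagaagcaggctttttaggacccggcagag
Igfbp5: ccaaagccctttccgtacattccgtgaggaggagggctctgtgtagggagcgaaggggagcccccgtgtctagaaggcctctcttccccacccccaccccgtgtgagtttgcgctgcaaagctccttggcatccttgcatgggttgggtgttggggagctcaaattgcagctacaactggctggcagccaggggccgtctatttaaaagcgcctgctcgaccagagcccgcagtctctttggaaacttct
Igfbp3: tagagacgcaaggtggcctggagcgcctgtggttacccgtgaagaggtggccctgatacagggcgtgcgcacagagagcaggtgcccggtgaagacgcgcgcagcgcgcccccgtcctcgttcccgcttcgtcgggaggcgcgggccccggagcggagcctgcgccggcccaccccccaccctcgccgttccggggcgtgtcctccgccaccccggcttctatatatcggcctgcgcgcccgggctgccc
For Igfbp5, the last 19 bases lie in an exon of the GENCODE annotation, whose start site is further upstream, and Igfbp2 has a further RefSeq start that is not shown. The window of Igf1 lies wholly in annotated exons and is not printed.

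On both strands the search covered the GC box GGGCGG (in 32.7% of all promoters of this length), the CCAAT box (33.8%), the TATA box as TATAAA (12.4%), the estrogen receptor half-site GGTCA (35.2%), the SMAD core CAGAC (42.2%), the FOXO site TGTTTAC (3.17%) and the E-box CACGTG (6.02%). The printed Igfbp2 window holds 3 GC boxes and 1 E-box, which do not overlap each other. The window at the further Igfbp2 start, which is not printed, holds 1 SMAD core and 1 estrogen receptor half-site. The windows of Igfbp5 and Igfbp3 hold 0 of the 7 motifs. The printed windows differ in base make-up too, with 67.2% G and C for Igfbp2, 58.8% for Igfbp5 and 73.2% for Igfbp3. The median promoter has 52.4%.

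Summed over the 6 binding protein genes, the deposited FPKM came to 1781 and 1545 under the floxed label and to 1256 and 1031 under the Cre label. FPKM is relative to each library's own RNA, so the sum was also taken from scaled counts per kilobase, which gave 1736 and 1612 against 1267 and 1036. On both scales the libraries labelled Cre lay below those labelled floxed; no test was made of this sum. Igfbp7 supplied 49.9% and 51.3% of the FPKM under the floxed label and 47.5% and 47.1% under the Cre label. Igfbp3 supplied 7.17% and 15.5% against 4.34% and 6.77%, so its share in Cre 2 was close to that in floxed 1. The share of Igfbp4 was 22.2% in floxed 1 and between 9.79% and 13.0% in the others, while that of Igfbp5 was 2.13% in floxed 2 and between 10.6% and 14.6% in the others. For each FPKM of Igf1 there were 65.4 and 326 FPKM of binding proteins under the floxed label and 37.5 and 30.9 under the Cre label. That ratio describes transcripts, not free hormone.

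**Figure D4:**
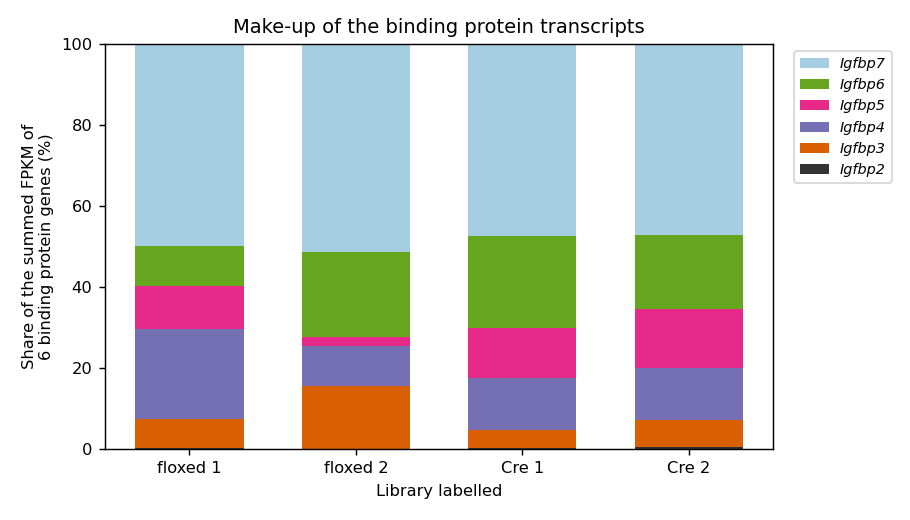
Share of each gene in the summed FPKM of the 6 binding protein genes, 1 stacked bar per library. Igfbp7 fills 47.1% to 51.3% of every bar, and floxed 2 differs by its wide Igfbp3 and thin Igfbp5 parts.

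Genes whose course over the 4 libraries was most like that of Igf1 were sought by the root mean square difference of centred log2 CPM, among 5125 genes whose FPKM averaged 10 or more. The nearest were C4b, a complement component whose close copy C4a makes its level uncertain (0.261), Hmcn2, a hemicentin of the matrix (0.268), and Igfbp5 (0.301). C4b stood at 115 and 32.6 CPM against 213 and 158 CPM, and Hmcn2 at 148 and 39.6 CPM against 313 and 246 CPM. All 3 were thus farther from Igf1 than the genes nearest to Igfbp3 were from it. The nearest to Igfbp3 were Nceh1, a cholesterol ester hydrolase (0.0863), Acpp, an acid phosphatase (0.0919), and Casp4, an inflammatory caspase (0.104). Nceh1 stood at 65.6 and 134 CPM against 33.6 and 39.2 CPM, and Casp4 at 58.5 and 116 CPM against 22.4 and 27.6 CPM. With 4 libraries such likeness is a description only.

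Of the related genes listed for the pathway, 41 of 53 were tested. At the unadjusted limit of 0.05 in edgeR 7 were higher (7.3% of all tested genes) and 1 was lower (6.58%), and 0 passed after adjustment (0%). The 5 lists had been chosen with earlier results of these data known. Ligands and receptors outside the members were few: Igf2, the fetal ligand, had 5 and 10 counts against 5 and 9 (given after its values were seen) and was not tested, nor were Igfals, Igfbpl1 and Insrr. Of the 3 tested, Ghr, the growth hormone receptor, stood at 59.0 and 65.5 CPM under the floxed label and at 95.8 and 117 CPM under the Cre label (log2 fold change 0.77 ± 0.22, edgeR adjusted p 0.247). Insr, the insulin receptor, stood at 106 and 70.5 CPM against 123 and 131 CPM (edgeR adjusted p 0.450), and Igf2r, which clears IGF2, at 200.3 and 97.7 CPM against 185 and 179 CPM. The 7 tested proteases of binding proteins and their inhibitors had 0 genes at an unadjusted p under 0.05 by edgeR and a median log2 fold change of 0.16. Stc2, which inhibits PAPP-A, stood at 2.97 FPKM in floxed 1 and between 14.1 and 18.8 FPKM in the other 3 libraries. Adam12, a protease of binding proteins, stood at 120.0 and 38.1 CPM against 139 and 112 CPM, and Stc1, a relative of Stc2, at 32.7 and 10.7 CPM against 11.6 and 17.5 CPM. Adam12 had a log2 fold change of 0.061 against floxed 1 and 1.72 against floxed 2. The sign of Igf2r turned with the floxed library, from -0.14 against floxed 1 to 0.90 against floxed 2, as did that of Stc1 (-1.18 to 0.44) and Stc2 (2.51 to -0.090). Pappa2 was not tested.

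Downstream of the receptor, 22 of 24 adaptor and PI3 kinase genes were tested, with a median log2 fold change of 0.23. Before adjustment (edgeR p under 0.05) 3 of them were higher (7.3% of all tested genes) and 1 was lower (6.58%). The 3 became 1 when libraries were scaled by total count alone and 0 with the replicate block. The list's median was 0.11 against floxed 1 alone, 0.44 against floxed 2 alone, 0.13 without Cre 1 and 0.20 without Cre 2. Foxo1, the transcription factor that AKT holds out of the nucleus, stood at 87.3 and 75.7 CPM under the floxed label and at 123 and 148 CPM under the Cre label (log2 fold change 0.73 ± 0.22, edgeR adjusted p 0.272). Pik3r1, the regulatory subunit of PI3 kinase, stood at 316 and 196 CPM against 451 and 484 CPM (0.87 ± 0.32, edgeR adjusted p 0.337). Grb14, an adaptor that inhibits the insulin receptor, was on the lower side at 10.9 and 21.8 CPM against 4.99 and 7.09 CPM (-1.44 ± 0.46, edgeR adjusted p 0.282), with -0.86 against floxed 1 alone and -1.85 against floxed 2 alone. Irs3 and Irs4 were not tested. Of the IGF2 mRNA binding proteins only Igf2bp2 was tested, at 36.9 and 76.6 CPM against 39.7 and 42.4 CPM (0.15 against floxed 1, -0.90 against floxed 2); Igf2bp1 and Igf2bp3 were not.

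Steroid receptors and estrogen-induced genes, which bear on uterine Igf1, had 8 of 8 tested values above zero. Their median log2 fold change was 0.97, against -0.033 for all tested genes. Before adjustment (edgeR p under 0.05) 3 of the 8 were higher, as were 7.3% of all tested genes. Greb1, an estrogen-induced cofactor, stood at 13.2 and 38.1 CPM under the floxed label and at 168 and 184 CPM under the Cre label (2.78 ± 0.54, edgeR adjusted p 0.152). That value was 3.73 against floxed 1 alone and 2.21 against floxed 2 alone. Esr1, the main estrogen receptor of the uterus, stood at 377 and 462 CPM against 745 and 793 CPM (0.88 ± 0.28, edgeR adjusted p 0.290). DESeq2 called 3 of the 8 higher at an adjusted p under 0.05, and 3.24% of all tested genes. The median of the list was 0.76 without Cre 1 and 1 without Cre 2. Esr2 and Areg were not tested. Against floxed 1 alone 7 of the 8 lay above zero, with a median of 1.57, and against floxed 2 alone 7 of 8, with a median of 0.87. Igf1 was lowest in floxed 2, whereas Greb1 was lowest in floxed 1.

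**Figure D5:**
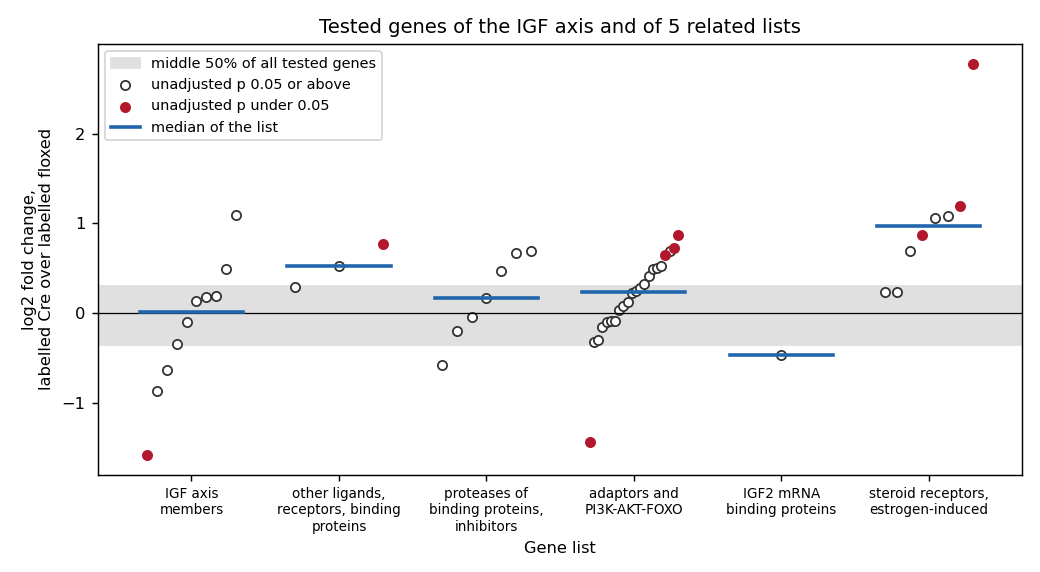
Log2 fold change of the tested genes in each list (points, filled where the unadjusted p is under 0.05), the list's median (blue line) and the middle 50% of all tested genes (grey band). The 10 IGF axis genes are centred near zero with a median of 0.013, and the 8 steroid receptor and estrogen-induced genes have a median of 0.97.

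Markers of other cell types also differed between the labels. Of the 8 smooth muscle markers summed above, 4 were higher under the Cre label at an unadjusted edgeR p under 0.05, and all 8 were detected in every library. Of all tested genes, 7.3% were higher and 6.58% lower at that limit. The 6 mesothelium markers summed to 194 and 115 CPM against 259 and 211 CPM (5 of 6 higher at the same limit). The remaining marker, Wt1, held 145 and 80.4 CPM of these sums under the floxed label and 93.4 and 118 CPM under the Cre label. The 5 tested ovary and oviduct markers summed to 69.4 and 154 CPM against 310 and 948 CPM (2 of 5 higher), with Hsd3b1 at 0 in both floxed libraries. Ovgp1, an oviduct glycoprotein singled out, like Hsd3b1 and Wt1, after its values were seen, had 40 and 1514 counts against 3954 and 15080. In CPM it stood at 1.70 and 86.8 against 201 and 869. Most of the ovary and oviduct sum under the Cre label was thus this 1 gene. Stromal markers summed to 9666 and 7782 CPM against 11094 and 9394 CPM, with 1 of 8 lower at the same limit, and 7 tested leukocyte markers to 456 and 258 CPM against 225 and 225 CPM, with 2 of 7 lower at it. Counted by no overlap, 4 of 8 stromal, 5 of 7 leukocyte and 3 of 8 epithelial markers were lower in both Cre libraries. So were 2 of 6 endothelial and 1 of 5 pericyte markers, and 23.6% of all tested genes. Higher in both were 8 of 8 smooth muscle, 5 of 6 mesothelium and 3 of 5 ovary and oviduct markers. So were 1 of 8 stromal, 1 of 8 epithelial, 1 of 6 endothelial and 1 of 5 pericyte markers (24.7% of all tested genes). The 8 epithelial markers summed to 1582 and 2320 CPM against 1914 and 1639 CPM (2 of 8 lower at the unadjusted limit). Endothelial markers summed to 599 and 451 CPM against 515 and 562 CPM (1 of 6 higher at that limit). Pericyte markers summed to 683 and 351 CPM against 442 and 485 CPM (1 of 5 higher). The 5 adipocyte ones summed to 222 and 101 CPM against 104 and 226 CPM. What part these markers had in the values of the IGF axis and of the steroid receptor genes was not tested.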

How the data were processed

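The authors deposited 2 values for every gene of a library, per the file headers: the raw count of reads and its FPKM. Per the submitters' processing notes, HISAT2, HTSeq 0.13.5 and the build GRCm38 were used; no settings are given there. The deposited FPKM could be rebuilt from counts, totals and 1 length per gene, which was the same in all libraries within 1e-06 for 23463 of 23463 genes. Coordinates and exon overlaps come from GENCODE M21 on GRCm38, and promoters from RefSeq, in which 10 of the 10 members were found.

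Genes averaging 1 FPKM or more (13513, with 15032 set aside) had their counts tested in edgeR 4.0.16 (R 4.3.3), quasi-likelihood with TMM scaling and no term but the label, which leaves 2 residual degrees of freedom. Two-sided p-values were adjusted over all tested genes (Benjamini-Hochberg). The SE was taken as |log2 fold change| over the root of F. Totals for CPM were those of the tested genes after TMM scaling, in which 3 counts are 0.127 to 0.173 CPM. The procedure was tested on simulated data. Values against a single floxed library, DESeq2 1.42.0 and limma 3.58.1 are alternatives, as are other filters, scalings and pseudocounts, a robust fit, each library left out and the replicate block. The members and all gene lists were chosen with earlier results of these data known. Named genes were the 10 members, Smad7, the 3 tested genes of smallest p in each pathway list, untested list genes by name only, and the 3 named genes nearest to Igf1 and to the member of smallest p; marker sums are over tested genes. Outside it, Hsd3b1, Ovgp1, Wt1 and the counts of Igf2 were chosen after their values were seen. A gene that the rule names is not reported here.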

Additional observations from a re-analysis of the deposited data

How the results depend on the processing

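The number of members at an adjusted p under 0.05, which was 0, became 1 with DESeq2 and 2 with no filter on low genes, and ran from 0 to 6 with 1 library left out. At an adjusted p under 0.1 it was 0, 1 with DESeq2, 2 with no filter and 0 to 8 with 1 library left out. Before adjustment (p under 0.05) 0 were higher, 1 with no filter and 0 to 5 with 1 library left out, and 1 lower, 2 with DESeq2, limma on log2(FPKM + 1) or no filter, and 0 to 3 with 1 library left out. With a single floxed library left, its spread was taken to be that of the Cre pair. The background moved too: at an adjusted p under 0.05 the main test called 0% of all tested genes. DESeq2 called 3.24% higher and 3% lower. Leaving out the filter gave 3.63% higher and 3.41% lower, and shares with a single floxed library were larger still. For the limit of 0.1 and for unadjusted p, shares of all genes in these fits are not given here. The log2 fold change changed sign when 1 library was left out for Igf1r (-0.17 to 0.50), Igfbp2 (-0.53 to 1.70), Igfbp5 (-0.27 to 2.16), Igfbp6 (-0.52 to 0.47), Irs1 (-0.14 to 0.58), Igf2r (-0.14 to 0.90), Igf2bp2 (-0.90 to 0.15), Stc1 (-1.18 to 0.44) and Stc2 (-0.090 to 2.51). The other scalings and filters, DESeq2, both limma fits, the robust fit and the block turned no member's direction; Igfbp2 and Irs2 fell below the filter of 5. The deviations of libraries with the same number in the labels from their group means had a correlation of -0.076 over genes. With 2 libraries per label, that value cannot tell if libraries of the same number were handled together. With the replicate block the number of members at an edgeR adjusted p under 0.05 was 0, and Igfbp3 had -1.51 and Igf1 1.55. The smallest count of any member was 37, that of Igfbp2 in floxed 2.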
